A study of Mus musculus with 2 samples.

Results

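The STAT transcription factors and the SOCS genes that restrain them were examined in mouse Lewis lung carcinoma (LLC) cells with and without knockdown of PDLIM2. The genes were taken by symbol from the annotation of the array probes and are Stat2, Stat3, Stat4, Stat5a, Stat5b, Stat6, Socs1, Socs2 and Socs3, that is 9 of the 19505 genes with a symbol. Each of the 9 genes was measured by 1 probe set. The shPDLIM2 cells were LLC cells, of C57BL/6 strain, infected with virus carrying an shRNA against PDLIM2, and the shEmpty cells were the same line infected with virus carrying shEmpty shRNA. Both were stable lines kept under puromycin selection, and the labels name no cytokine treatment of either. RNA of each line was hybridized to 1 Affymetrix Clariom S array, which leaves no replicate, so that every difference is given without an error or a p-value.

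In the JAK-STAT pathway a cytokine binds its receptor, the receptor-bound JAK kinases phosphorylate STAT proteins, and the STATs pair and enter the nucleus to switch on genes. Among these genes are those of the SOCS family, whose proteins bind receptors and JAKs and shut the signal down, so that SOCS mRNA is widely read as a trace of recent STAT activity. PDLIM2 is a nuclear protein known from mouse T cells to mark STAT proteins for degradation, an action on protein that the mRNA of a STAT gene need not show. An mRNA array measures neither the amount of a STAT protein nor its phosphorylation. The question the comparison addresses is therefore whether the transcripts of the STAT genes, and of the SOCS genes that STATs induce, differed between the lines.

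STAT dimers bind DNA at a palindrome spelled TTCNNNGAA, which reads the same on both strands. Promoter windows from RefSeq (GRCm38.p6), from 250 bases before to 50 after each start site, were matched by symbol for 8 of the 9 genes. The 8 genes had 11 windows. A match lay in 1 of the 11, that of Socs3, and 8.30% of all 32851 windows held one. Cish, a SOCS gene outside the 9 that is a classical STAT5 target, held 2 matches in its window. The stretches around these matches are shown as the places in the windows of Socs3 and Cish where the letters of a STAT site occur. Socs1 had no match and Socs2 had no window, and among the SOCS genes outside the 9 only Cish was searched. The capitals mark TTCNNNGAA.
Socs3 (chr11:117969488-117969544, minus strand, match 154 bases before the start site of the window): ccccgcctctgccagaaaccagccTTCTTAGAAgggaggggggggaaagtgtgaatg
Cish (chr9:107296629-107296678, plus strand, matches at the start site and 11 bases after it): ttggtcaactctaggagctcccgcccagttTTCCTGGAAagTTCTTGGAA
The start site of the Socs3 window lies inside the annotated span of the gene, and so does the printed stretch, which is thus not upstream of the whole gene. A match is a description of these letters and not a measured binding site, and a window without one says nothing of STAT binding elsewhere at the gene.

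On the arrays, Pdlim2, the targeted gene, was at 8.33 in shPDLIM2 cells and 10.04 in shEmpty cells on the log2 scale, a difference of -1.71. Signals are given as log2 values after RMA, a processing method whose last step is a summary over the probes of a set. Every difference is shPDLIM2 minus shEmpty. Because the values of different probe sets are not comparable, no gene's level was set against another's. Background, the signal expected of a gene with no transcript, was set at the 95th percentile of 1450 odorant, vomeronasal and taste receptor genes, which was 5.26 in shPDLIM2 cells and 5.12 in shEmpty cells. Of the 9 STAT and SOCS genes, 7 lay above this background on both arrays. Socs3 did so in shEmpty cells alone, and Stat4 on neither array.

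**Figure D1:**
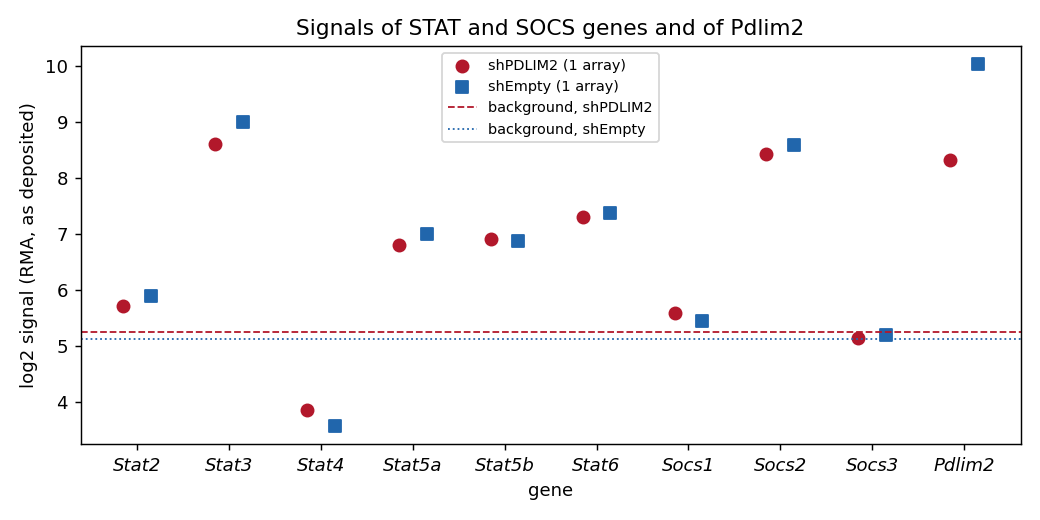
Log2 signals (y axis) of the 9 STAT and SOCS genes and of Pdlim2 (x axis) on the shPDLIM2 array (circles) and the shEmpty array (squares), 1 array each, with the background level of each array as a line. The paired points of each STAT and SOCS gene lie within 0.39 of each other, while those of Pdlim2 differ by -1.71, and Stat4 is below both lines.

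The STAT and SOCS transcripts differed little between the lines. None of the 9 genes was past 2-fold in either direction, where 3.61% of all genes were, and none was past 1.5-fold, where 19.8% of all genes were. Where only genes above background on 1 or both arrays were counted, these shares were 5.20% and 24.3%, and 8 of the 9 genes belong to that set. With 9 genes at these shares, a count of 0 past 2-fold is near the background. The differences ran from -0.39 in Stat3 to 0.28 in Stat4, with a median of -0.06, against a median of 0.01 over all genes. Over all genes above background on 1 or both arrays the median was -0.06, and over the 8 of the 9 in that set -0.115. The median size of the difference, without its sign, was 0.17 in the 9 genes and 0.30 over all genes. No test compares these sizes, and 62.6% of all genes differed by no more than the 0.39 of Stat3.

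**Figure D2:**
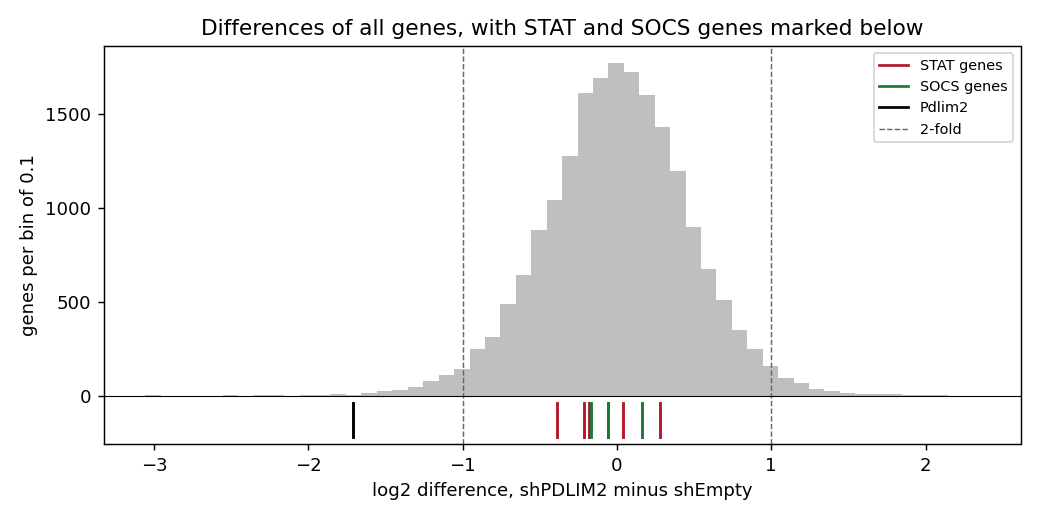
Number of genes (y axis) per bin of 0.1 of the log2 difference, shPDLIM2 minus shEmpty (x axis), over 19505 genes, with marks below for the STAT genes, the SOCS genes and Pdlim2 and dashed lines at 2-fold. The marks of the 9 genes run from -0.39 to 0.28 in the centre of the distribution, and Pdlim2 stands at -1.71.

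Stat3, which carries signals of interleukin-6, LIF and related cytokines and has wide roles in tumor cells, had log2 signals of 8.62 in shPDLIM2 cells and 9.01 in shEmpty cells. Its difference of -0.39, or 1.31-fold, was the largest of the STAT genes in size. Among the 2369 genes with a mean signal within 1 log2 unit of Stat3, 43.1% differed by at least as much. Stat3 kept a negative difference under each of 5 scalings of the arrays, between -0.40 and -0.15.

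Stat5a and Stat5b, close paralogs that act downstream of growth hormone, prolactin and interleukin-2, lie next to each other and to Stat3 on chromosome 11, with 0 protein-coding genes between them in the GRCm38.p6 annotation. Stat5a had signals of 6.80 in shPDLIM2 cells and 7.01 in shEmpty cells, a difference of -0.21. Stat5b had signals of 6.92 in shPDLIM2 cells and 6.88 in shEmpty cells, a difference of 0.04. Of the genes of like signal, 67.2% differed by at least as much as Stat5a and 94.1% by at least as much as Stat5b. The differences of the 3 neighbours thus had no common sign on the deposited scale. Whether probes of the Stat5a and Stat5b sets can bind transcripts of the other paralog was not tested.

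Stat6, the factor of interleukin-4 and interleukin-13 signaling, had signals of 7.31 in shPDLIM2 cells and 7.37 in shEmpty cells, a difference of -0.06. Stat2, which joins Irf9 in the factor that answers type I interferon, had signals of 5.72 in shPDLIM2 cells and 5.90 in shEmpty cells, a difference of -0.18. Both Stat2 signals were less than 1 log2 unit above background. Irf9, its partner, was not above background on either array, at 4.89 in shPDLIM2 cells and 4.41 in shEmpty cells.

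Stat4, which drives the response of T and natural killer cells to interleukin-12 and is one of the STAT proteins that PDLIM2 is known to degrade, had signals of 3.85 in shPDLIM2 cells and 3.57 in shEmpty cells. As both lie below background, no fold is given for it and its difference of 0.28 has no readable direction. Beside it, 8 of 9 leukocyte markers were not above background on either array. Ptprc, the pan-leukocyte phosphatase CD45, was at 4.63 in shPDLIM2 cells and 4.64 in shEmpty cells, and the T cell receptor chain gene Cd3e at 4.10 in shPDLIM2 cells and 4.06 in shEmpty cells. The exception was Cd4, at 5.38 in shPDLIM2 cells, just above background, and 4.84 in shEmpty cells.

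Of the SOCS genes, Socs1 encodes a direct inhibitor of JAK kinase activity. It had signals of 5.60 in shPDLIM2 cells and 5.44 in shEmpty cells, a difference of 0.16, with both signals less than 1 log2 unit above background. Socs2, a regulator of growth hormone receptor signaling, had signals of 8.43 in shPDLIM2 cells and 8.60 in shEmpty cells, a difference of -0.17. Socs3, the feedback inhibitor that binds the shared receptor gp130 and whose window held the match printed above, had signals of 5.14 in shPDLIM2 cells and 5.20 in shEmpty cells, a difference of -0.06. Socs3 was thus at the edge of background on both arrays, and no fold is given for it. Of the genes of like signal, 74.3% differed by at least as much as Socs1, 73.5% as Socs2 and 90.8% as Socs3.

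Taken as groups, the 6 STAT genes had a median difference of -0.12, with 2 positive and 4 negative, or -0.18 with 1 positive and 4 negative without Stat4, and the 3 SOCS genes a median of -0.06, with 1 positive and 2 negative, all on the deposited scale, since several signs turned under another scaling. For comparison, 54.9% of all genes above background on 1 or both arrays had negative differences, with a median of -0.06. All 9 differences lay inside the central 95% of the differences of genes of like signal. As a measure of probe noise, the spread of the shPDLIM2 minus shEmpty difference of a single probe set was 0.35 on the log2 scale. It was taken from the disagreement within 48 genes with exactly 2 probe sets. The difference of Stat3 was slightly larger than this spread and the other 8 were smaller. This spread leaves out the variation between cultures, which could not be measured.

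The sign of several differences depended on how the arrays were scaled. Of the 8 genes above background on 1 or both arrays, Stat3 (negative) and Stat5b and Socs1 (positive) kept their sign under all 5 scalings. Stat6 had a positive difference of 0.05 after quantile normalization and 0.03 after removal of a lowess trend. With the difference of Actb, the reference gene of the study's RT-qPCR, set to 0, all genes moved up by 0.24, and Stat2, Stat5a, Stat6, Socs2 and Socs3 then had positive differences from 0.03 (Stat5a) to 0.18 (Stat6 and Socs3). On that scale the median over all genes was 0.25, above the 0.18 of the 9 genes. None of the 9 genes was past 1.5-fold under any scaling. Apart from Stat4, which is at background, the largest difference in size was 0.40, negative in Stat3 with the median of all genes at 0 and positive in Socs1 on the Actb scale.

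**Figure D3:**
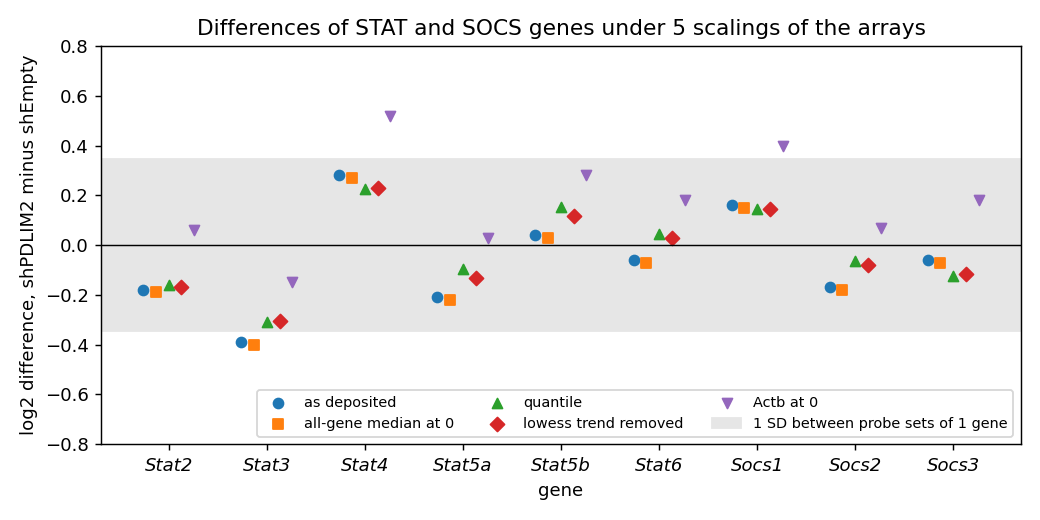
Log2 difference, shPDLIM2 minus shEmpty (y axis), of each STAT and SOCS gene (x axis) under 5 scalings of the arrays. The band is 1 SD (0.35) of the difference of a single probe set, taken from genes with exactly 2 probe sets. Most points lie inside the band, and the Actb points stand 0.24 above the deposited ones, which puts 8 of the 9 genes above 0.

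The other genes of the pathway went both ways. Of 138 further pathway genes measured, 67 had positive and 71 negative differences, with a median of -0.02. The counts of signs in this and the lists that follow are on the deposited scale, and genes near 0 changed sign on the Actb scale. Past 2-fold were 4 of them, or 2.90%, against 3.61% of all genes, and past 1.5-fold 21, or 15.2%, against 19.8%. The share past 2-fold was 4.35% against 3.48% of all genes after quantile normalization, and likewise after removal of the lowess trend, and on the Actb scale 9 pathway genes, or 6.52%, were past it against 5.54% of all genes. No test compares these shares, and their order depended on the scaling.

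The JAK kinases, which phosphorylate the STATs, had negative differences in 3 of 3 genes measured, under each of the 5 scalings, all of the same 2 arrays. As deposited, 54.9% of all genes above background on 1 or both arrays also had negative differences. Tyk2, which serves interferon and interleukin-12 receptors, had signals of 8.24 in shPDLIM2 cells and 8.93 in shEmpty cells, a difference of -0.69. Jak2, the kinase of the growth hormone and erythropoietin receptors, had signals of 9.04 in shPDLIM2 cells and 9.61 in shEmpty cells, a difference of -0.57. Jak1 had a difference of -0.26, which shrank to -0.02 on the Actb scale. Of the 3, Tyk2 alone was past 1.5-fold, where 19.8% of all genes were and 24.3% of those above background on 1 or both arrays. Among the genes of like signal, 16.4% differed by at least as much as Tyk2 and 25.7% by at least as much as Jak2.

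Among 12 inhibitors and phosphatases of the pathway, 2 were past 2-fold. In either direction 3.61% of all genes were, and 5.20% of those above background on 1 or both arrays. Both of the 2 were lower in shPDLIM2 cells, and 1.95% of all genes were past 2-fold in that direction. Ptpn1, which encodes the phosphatase PTP1B that removes phosphate from JAK2 and TYK2, had signals of 11.33 in shPDLIM2 cells and 12.64 in shEmpty cells, 2.48-fold lower. Ndufa13 had signals of 11.93 in shPDLIM2 cells and 13.22 in shEmpty cells, 2.45-fold lower. Its protein, also called GRIM-19, is a subunit of respiratory complex I and is known from human cells to bind STAT3 and hold it back. Among genes of like signal, 1.10% differed by at least as much as Ptpn1, and likewise as Ndufa13, and both stayed past 2-fold under each scaling. Sh2b3, an adaptor that restrains JAK2 signaling in blood cells, was at -0.86 and the SUMO ligase Pias4 at -0.52. On the other side Ptpn2, the T cell phosphatase TC-PTP that acts on JAKs and STATs, was at 0.38. The 12 genes had 5 positive and 7 negative differences and a median of -0.07. Over the 9 of them above background, 3 were positive and 6 negative, with a median of -0.41, against -0.06 over all genes above background.

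SOCS proteins bring their targets to a ubiquitin ligase made of elongins B and C, Cul5 and Rnf7. Of 6 genes of this ligase and its helpers, all above background, 4 had positive and 2 negative differences, with a median of 0.21. Ube2f, which loads NEDD8 onto Cul5 together with Rnf7, had signals of 12.95 in shPDLIM2 cells and 12.10 in shEmpty cells, a difference of 0.85, which was past 2-fold on the Actb scale alone. Rnf7 was at 0.34, the elongin B gene Elob at 0.25 and Cul5 at -0.34. Of the 5 other SOCS-box family genes, 4 had negative differences. Socs4 alone was past 1.5-fold, where 19.8% of all genes were, with signals of 7.46 in shPDLIM2 cells and 8.20 in shEmpty cells, a difference of -0.74. Socs5, Socs6 and Socs7 were between -0.14 and -0.05, with positive differences on the Actb scale. Cish, with its 2 matches, was not above background on either array, at 3.55 in shPDLIM2 cells and 3.33 in shEmpty cells.

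Among the cytokine ligands, 23 of 29 genes were not above background on either array, Il6 among them, at 3.74 in shPDLIM2 cells and 4.09 in shEmpty cells. Lif, a gp130 cytokine that signals through STAT3, had signals of 9.37 in shPDLIM2 cells and 8.73 in shEmpty cells, 1.56-fold higher. Il11, another gp130 cytokine, was at 0.11.

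Of 28 type I cytokine receptor genes, 12 were not above background on either array. Il6st, which encodes gp130, was at 0.43 and Il4ra, the interleukin-4 receptor that signals through STAT6, at -0.39. Past 2-fold on the measured signals were Il13ra2 and Il5ra, or 7.14% of the 28, against 3.61% of all genes. Il13ra2, known as a decoy receptor for interleukin-13, was above background in shPDLIM2 cells alone, at 5.44 against 4.24 in shEmpty cells. Set against the background level, Il13ra2 was at least 1.25-fold higher. With the 99th percentile as background, 5.82 in shPDLIM2 cells and 5.70 in shEmpty cells, Il13ra2 was above it on neither array. Il5ra was not above background on either array.

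Receptors of type II cytokines differed in both directions. Ifngr1, the ligand-binding chain of the interferon-gamma receptor, had signals of 7.74 in shPDLIM2 cells and 6.81 in shEmpty cells, 1.91-fold higher, and was past 2-fold after quantile normalization, after removal of the lowess trend and on the Actb scale. Its partner Ifngr2 was at -0.01. Ifnar1 and Ifnar2, the chains of the type I interferon receptor, were at -0.53 and -0.52.

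Genes listed as STAT targets were also split. Of 21 STAT3 targets, 9 had positive and 12 negative differences, with a median of -0.08, and 0 were past 2-fold on the deposited scale. Lcn2, the iron-scavenging protein lipocalin 2, had signals of 8.19 in shPDLIM2 cells and 7.27 in shEmpty cells, 1.89-fold higher, and was past 2-fold under the same 3 scalings as Ifngr1. Bcl3, a nuclear IκB protein, had signals of 5.94 in shPDLIM2 cells and 6.85 in shEmpty cells, 1.88-fold lower. Myc, a growth-promoting transcription factor, was at 0.59 and Birc5, the survivin gene, at -0.57. Many of these genes also answer to other factors, NF-κB among them, so that the list is not specific to STAT3.
Of 10 STAT5 targets, 6 had positive and 4 negative differences, with a median of 0.11 and 0 past 1.5-fold. The kinase gene Pim1 was at 0.49, Onecut2 at 0.46 and the cell cycle inhibitor Cdkn1a at 0.39, while Igf1, a growth factor, was at -0.21, or 0.03 on the Actb scale. Of 13 STAT6 targets, 8 were not above background on either array, among them the macrophage gene Arg1, at 4.24 in shPDLIM2 cells and 4.28 in shEmpty cells. Pparg, a nuclear receptor of lipid metabolism, was above background in shPDLIM2 cells alone, at 5.64 against 4.93 in shEmpty cells. Set against the background level it was at least 1.43-fold higher. With the 99th percentile as background, 5.82 in shPDLIM2 cells and 5.70 in shEmpty cells, Pparg was above it on neither array. Fcer2a was at -0.45 and the mannose receptor gene Mrc1 at 0.37. Among 8 STAT partners and coactivators, Ncoa1 was at -0.58 and the acetyltransferase gene Crebbp at 0.47, and none was past 1.5-fold. Of these 8 genes, 3 had positive and 5 negative differences as deposited, and 6 positive and 2 negative after quantile normalization and on the Actb scale.

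**Figure D4:**
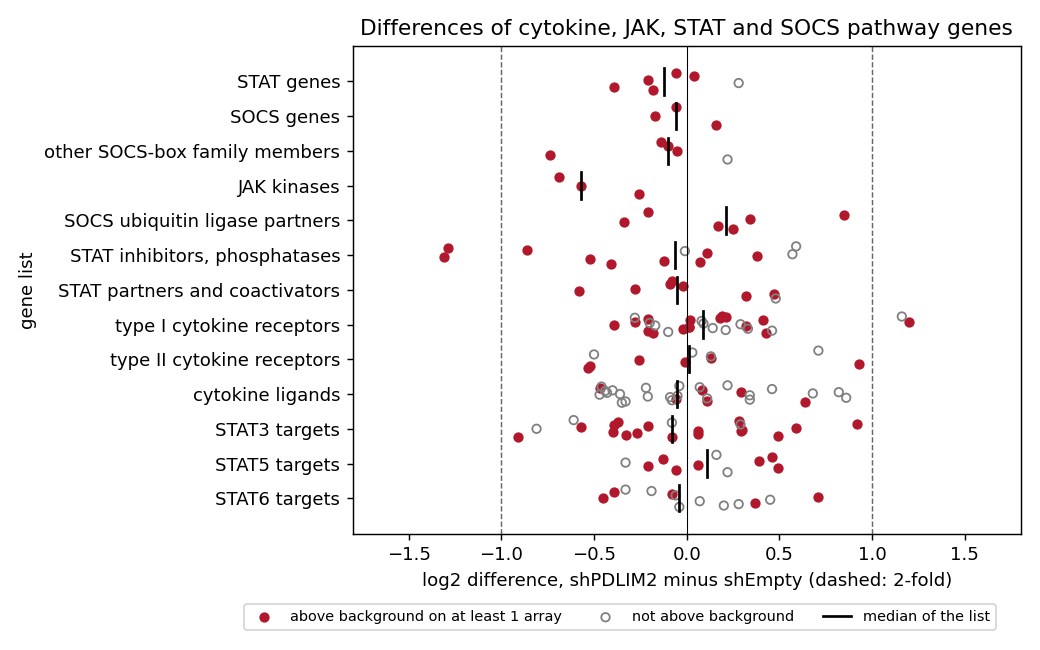
Log2 difference, shPDLIM2 minus shEmpty (x axis), of each measured gene of 13 pathway lists (y axis), filled where the gene was above background on at least 1 array, with the median of each list as a bar and dashed lines at 2-fold. The STAT and SOCS genes stay between -0.39 and 0.28, while Ptpn1 and Ndufa13 lie past the 2-fold line at -1.31 and -1.29.

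The labelled cell type was checked against markers. All 5 carcinoma and epithelial markers had negative differences as deposited, as did 49.0% of all genes, and all but Epcam kept them under each of the 5 scalings. Epcam and Cdh1 were not above background on either array. Krt18 had signals of 11.29 in shPDLIM2 cells and 12.20 in shEmpty cells, a difference of -0.91, and Krt8 had 6.59 in shPDLIM2 cells and 6.95 in shEmpty cells, a difference of -0.36. Krt19 was above background in shEmpty cells alone, with 4.67 in shPDLIM2 cells and 5.82 in shEmpty cells, and was at least 1.48-fold lower. Among 5 mesenchymal markers measured, 2 had positive and 3 negative differences as deposited, and 2 were not above background on either array. The filament gene Vim was at 19.46 in shPDLIM2 cells and 19.56 in shEmpty cells, and Col3a1 at 10.49 and 10.83 in the same order. Pdgfrb was above background in shPDLIM2 cells alone, at 5.55 against 5.01 in shEmpty cells. Of the macrophage and endothelial markers, 3 of 4 and 3 of 4 were not above background on either array. Adgre1 and Pecam1 were above it in shPDLIM2 cells alone, at 5.76 against 4.93 and 5.33 against 3.55 in shEmpty cells. The part of these markers in any difference of the STAT or SOCS genes was not tested, and with 1 array per line the knockdown, the selection of each line and the handling of each culture cannot be told apart.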

How the data were processed

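The values deposited by the authors are log2 signals, 1 per probe set, of 2 Affymetrix Clariom S mouse arrays, 1 per cell line. RMA and the Transcriptome Analysis Console are named in the processing notes of the submitters. For their versions, the genome build and whether RMA normalized the 2 arrays together, the sources used here give nothing. Of 22206 probe sets, 19572 had 1 symbol in the platform annotation, 0 had several and 2634 had none and were left out. Probe sets of 1 gene were averaged (55 genes). With 1 array per line no test was run, and the number of arrays limits the precision. A fold is past 2 where the log2 difference exceeds 1.00, and past 1.5 where it exceeds 0.585. Where 1 array was above background, only a lower bound on the fold is given, in which the dimmer signal is raised to its array's background. The bound depends on the percentile taken as background. Genes of like signal had a mean signal within 1 log2 unit.

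The named genes are the 9 STAT and SOCS genes, Pdlim2, Actb and, in each list, members past 2-fold or among the 4 with the largest differences above background; some further list members, and the markers, were named after their values were seen. The genes, lists and rules were chosen with earlier results of these data known. Some listed genes were not analysed here. Alternatives were the median difference of all genes set to 0, quantile normalization, removal of a lowess trend (fraction 0.3), Actb set to 0, a filter on dim genes, the brightest probe set, a 1.5-fold threshold and the 99th percentile as background. The scalings were tested on simulated data. Python 3.11.15, numpy 2.4.6, pandas 2.3.3, statsmodels 0.14.6 and matplotlib 3.10.9 were used.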

Additional observations from a re-analysis of the deposited data

How the results depend on the processing

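With 1 array per cell line the values have no test, so a value was counted as changed where it moved by more than 0.35 on the log2 scale, the spread among probe sets for a single gene, and a count where it moved by more than 1.5 times. No paired analysis was possible because each group has 1 array and no test was run. Of 44 summaries of the STAT and SOCS genes under the alternatives, 2 changed. Many of the 44 could not change, so the count is no measure of stability. The brightest probe set repeats the deposited values, since each gene has 1 probe set. A shift of all genes by -0.01 or 0.24 cannot move a median past 0.35 or alter the difference between 2 medians. With Actb set to 0, 8 of the 9 genes had positive and 1 a negative difference, against 3 positive and 6 negative as deposited. For single genes (Pdlim2 and the 9), only quantile normalization and the lowess trend could move a value by more than 0.35, since each has 1 probe set and the other scalings shift all genes by -0.01 or 0.24; the largest move under those was 0.12. Of 300 values of the pathway lists, 44 changed, 17 of them on the Actb scale, 12 with the filter on dim genes, 9 at the 1.5-fold threshold, 4 with quantile normalization and 2 with the lowess trend removed. The brightest probe set could change none of these either, since the listed genes too have 1 probe set each. The count past 2-fold stayed at 0 of 9 under each scaling and at the 1.5-fold threshold. The median of the SOCS genes minus that of the STAT genes was 0.06 as deposited, -0.04 with quantile normalization and -0.03 with the lowess trend removed. With the 99th percentile as background, 5 of 9 genes in place of 7 were above it on both arrays.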
